A study of Gallus gallus with 24 samples.

Results

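The genes described here encode the proteins of the cytosolic ribosome. They are all genes on the array whose probe sets carry a single platform gene symbol of the form RPL or RPS with a number, or RPLP0, RPLP1, RPLP2 or RPSA, without the S6 kinase genes and the mitochondrial ribosomal proteins. This gave 65 genes, 43 of the large subunit and 22 of the small subunit, out of 13009 genes with a probe set that names 1 gene. They are measured by 138 of the array's 38535 probe sets. Each gene is represented by the probe set with the highest mean signal over all arrays, and the other probe sets of 34 genes are given beside it. All 65 chosen probe sets passed the filter on low signal. RPL10 and RPS19, among other ribosomal proteins, are not analysed here, and 3 ribosomal components whose symbols fall outside the rule are given near the end.

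A ribosome is built of a small subunit, which reads the messenger RNA, and a large subunit, which joins the amino acids. Each subunit is ribosomal RNA with a set of proteins of which most are present as a single copy, so their genes have to be expressed in proportion. In vertebrates their messenger RNAs begin with a terminal oligopyrimidine (TOP) motif, through which the growth-sensing kinase mTOR sets their translation, so that output can change with no change of the messenger RNA. In the retina, photoreceptors make new outer-segment protein every day, which keeps the demand for translation high.

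RNA was measured in retina dissected together with its pigment epithelium from white Leghorn chicks, with 1 Affymetrix Chicken Genome array per eye and 24 arrays in all. At the age of 1 week, at the start of the light phase of a cycle of 12 h light and 12 h dark, a translucent white plastic goggle was glued over 1 eye under ether, on the left or the right in turn. The goggle blurs the image, and the covered eye grows too long, a state called form-deprivation myopia. The other eye of the same chick was left uncovered as the control and is called the open eye. The 4 groups, each of 6 arrays, were goggled eyes after 3 d, open eyes after 3 d, goggled eyes after 6 h and open eyes after 6 h. Eyes of the same chick were set side by side within a time, as counts and differences per chick. The fits compared group means without the pairing, so their SEs, intervals and p values are unpaired. Fits with the chick as a block are given in the last section. The 2 times were different chicks, so the length of goggle wear and the age of the chick cannot be told apart. Nor can any difference in time of day, or any other difference between the chicks or the arrays of the 2 times.

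The deposited values are signal intensities on a linear scale, brought to the same trimmed mean of 150.03 on every array, so each is relative to the rest of its array. Fits used log2(signal + 16), and all differences below are on that scale. Retina and pigment epithelium were both present: SNAP25, a synaptic protein of neurons, had a mean signal of 7652, GLUL, the glutamine synthetase of Müller glia, 5294, and RPE65, the isomerase of the pigment epithelium, 3636. GNAT1, the transducin of rods, was dim at 30.9, and the collagen gene COL1A1 of sclera and choroid averaged 71.4. In whole tissue, a lower signal can mean fewer cells of a type or less RNA per cell, and these cannot be told apart. The median signal of an array averaged 32.6 ± 2.21 in goggled eyes at 3 d, 35.7 ± 2.68 in open eyes at 3 d, 39.8 ± 3.01 in goggled eyes at 6 h and 40.5 ± 3.41 in open eyes at 6 h (SD, n = 6 each). It was thus lower at 3 d than at 6 h. Some results by time below are also given with this median as a covariate, and its part in them was not tested further.

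Most ribosomal protein genes gave a strong signal. Of the 65, 48 had a mean signal above 4096, a level that 201 of the 26913 tested probe sets passed. RPL19 and RPL38 of the large subunit averaged 9086 and 9004, and RPS3A of the small subunit averaged 8464, on arrays whose highest single value was 13561. A probe set's signal also depends on its probes, so these values do not rank the genes by amount of RNA. At the other end, RPL3L, a copy of RPL3 known in mammals from striated muscle, averaged 26.4, RPS13 46.9, RPL31 133 and RPS27L, a copy of RPS27, 252. RPL22L1 and RPL7L1, copies of RPL22 and RPL7, averaged 650 and 960.

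The members varied together between arrays of a group. Their median within-group SD was 0.17 on the log2 scale, against 0.24 over all tested probe sets, most of which are dimmer. Among probe sets above 4096, the members were not the steadier. There the median limma SE of a difference between 2 groups was 0.10 for 48 members and 0.081 for 144 other probe sets. Over the 24 arrays, after group means were removed, the 2080 pairs of members had a median correlation of 0.637, and 95.8% of the pairs were above 0. These correlations describe 24 arrays whose scaling and chicks the genes share, so part of each is common to the array. RPS25, RPL22 and RPL23A, at 0.976, 0.964 and 0.955, followed the median of the other members most closely. RPL3L (0.003), RPS15A (0.098), RPS13 (0.18), RPL7L1 (0.19), RPL31 (0.29) and RPS27L (0.31) followed it least, and apart from RPS15A these are dim probe sets or copies of another ribosomal protein gene. RPLP0, the scaffold of the acidic stalk of the large subunit, which recruits translation factors, was also loose at 0.34 although its mean signal was 2307.

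**Figure D1:**
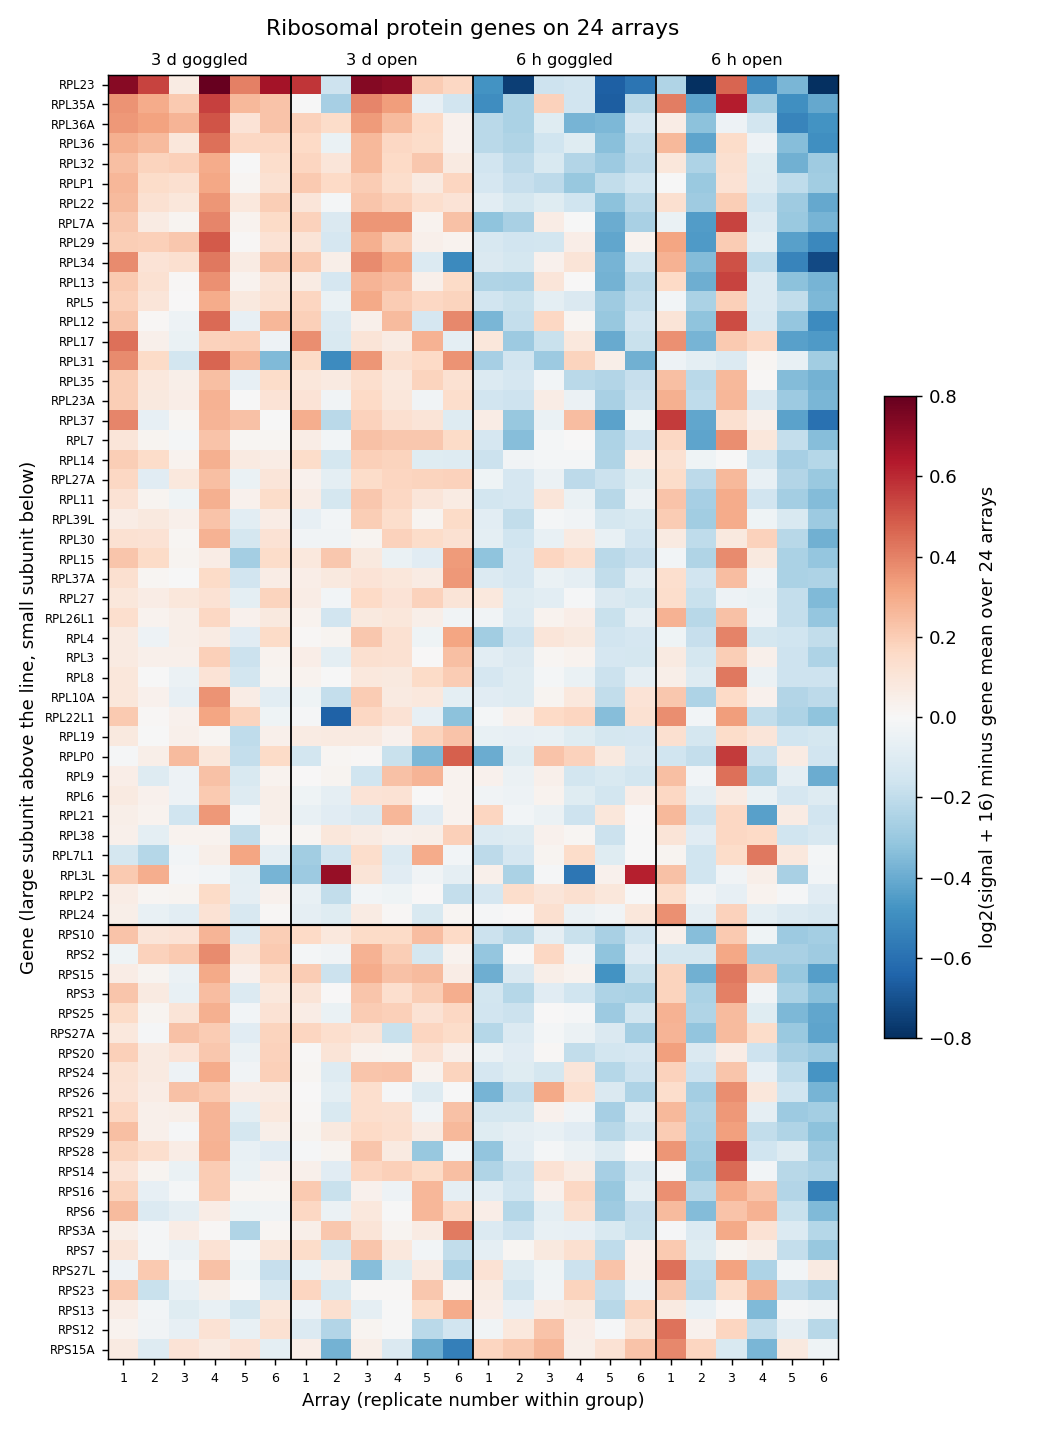
Each cell is the log2(signal + 16) of a gene on 1 array minus that gene's mean over 24 arrays, with genes in rows (large subunit above the line, small subunit below, ordered by the difference between 3 d and 6 h in goggled eyes) and the 4 groups of 6 arrays in columns. Whole columns are red or blue together, and the open eyes at 6 h hold both the reddest (replicate 3) and the bluest (replicate 6) of the 6 h columns. The columns at 3 d are redder than those at 6 h on the deposited scale. Relative to the hybridisation controls the shift is no longer upward, while most of another 24 controls without chicken RNA were lower at 3 d.

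The median deviation of the 65 genes from their own means gives a single level per array. In goggled eyes at 3 d it ran from -0.03 to 0.24, with a mean of 0.086 ± 0.098. In open eyes at 3 d it ran from -0.05 to 0.15, with a mean of 0.076 ± 0.072. In goggled eyes at 6 h it ran from -0.22 to -0.01, with a mean of -0.11 ± 0.082, and in open eyes at 6 h from -0.31 to 0.23, with a mean of -0.068 ± 0.23 (SD, n = 6 each). The open eyes at 6 h were the most spread of the 4 groups. Replicates 3 and 1 stood at 0.23 and 0.18, with 58 and 55 of 65 genes above their own mean, and replicate 6 stood at -0.31, with 1 of 65.

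The first question is what the goggle did to the ribosomal protein genes, and within this design no member passed the test. At 3 d, 39 members were higher and 26 lower in goggled than in open eyes, with a median difference of 0.01 against -0.03 over all tested probe sets. At 6 h, 18 were higher and 47 lower, with a median of -0.04 against -0.01. None of the 65 passed an adjusted p of 0.05 in limma at either time (over all 26913 probe sets, 0.00743% were called at 3 d and 0% at 6 h), and with no adjustment 1 member had a p under 0.05 at 3 d and 0 at 6 h. Over both times together none was called (background 0.00743%), with 1 higher and 1 lower at an unadjusted p under 0.05. The goggle effect at 3 d minus that at 6 h had a median of 0.06, with 49 members above 0 and 16 below, and none was called (background 0%, and 0 members at an unadjusted p under 0.05). The goggled and open groups of every member overlapped at both times (over all tested probe sets, 0.0595% lay wholly higher and 0.216% wholly lower in goggled eyes at 3 d, and 0.0483% and 0.0706% at 6 h). The 95% confidence interval of the difference lay within 0.5 of 0, on the log2 scale, for 61 members at 3 d, 64 at 6 h and all 65 over both times, so a change of 0.5 was outside the interval for nearly all of them.

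The paired eyes show the same. At 3 d the median over the members of goggled minus open eye was 0.10, 0.11, -0.10, 0.12, -0.06 and -0.003 in the 6 chicks, with a mean of 0.026 ± 0.095 (SD). At 6 h it was -0.28, 0.08, -0.27, 0.05, 0.02 and 0.19, with a mean of -0.035 ± 0.19. The goggled eye was above the open eye in 3 of 6 chicks at 3 d and in 4 of 6 at 6 h. In several chicks the genes moved as a block. At 6 h 0 of 65 genes were higher in the goggled eye of chick 1, and 63 of 65 in that of chick 6. Others were split, with 38 and 41 genes higher in chicks 4 and 5 at 6 h. Chick 6 at 3 d had 31. In chicks 1 and 3 at 6 h it was the open eye that stood high.

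**Figure D2:**
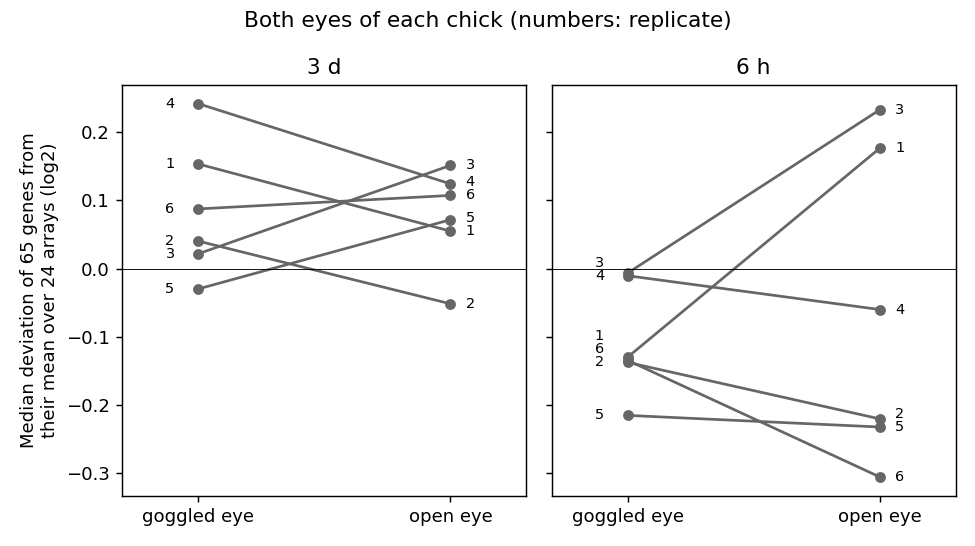
The vertical axis is the median deviation of the 65 genes from their means over 24 arrays (log2), with the goggled eye of each chick joined to its open eye, the 3 d chicks in the left panel and the 6 h chicks in the right. The lines rise and fall in both panels, with the goggled eye higher in 3 of 6 chicks at 3 d and 4 of 6 at 6 h, and the open eyes at 6 h spread from -0.31 to 0.23.

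RPS15A and RPS3A, both of the small subunit, came closest to a goggle difference. RPS15A had signals from 5065 to 5857 with a median of 5720 in goggled eyes at 3 d, against 3710 to 5628 with a median of 4603 in open eyes at 3 d. At 6 h it had 5618 to 6521 with a median of 6200 in goggled eyes, against 4215 to 7084 with a median of 5527 in open eyes. It was higher in the goggled eye in 6 of 6 chicks at 3 d and 11 of 12 over both times, with a log2 difference over both times of 0.20 (SE 0.080, limma adjusted p = 0.788). The second probe set of RPS15A, which is as bright (mean signal 5159), gave -0.02 for the same difference and was higher in 7 of 12 chicks. RPS3A had 7126 to 8763 with a median of 8478 in goggled eyes at 3 d, against 8560 to 11205 with a median of 8916 in open eyes at 3 d. At 6 h it had 7438 to 8075 with a median of 7765 in goggled eyes, against 7169 to 10370 with a median of 8081 in open eyes. It was lower in the goggled eye in 6 of 6 chicks at 3 d and in 11 of 12 over both times, with a difference of -0.14 (SE 0.062, adjusted p = 0.81). In both genes the groups overlapped at each time.

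The other members at the ends of the goggle comparisons lay within their errors. At 3 d the highest differences after RPS15A were those of RPL35A (0.28, SE 0.18) and RPL22L1 (0.25, SE 0.14), and the lowest after RPS3A were those of RPL19 (-0.11, SE 0.074) and RPS13 (-0.11, SE 0.087). At 6 h the highest after RPS15A were RPS13 (0.07) and RPL34 (0.06), and the lowest were RPL35A (-0.17), RPS3 (-0.14) and RPS15 (-0.13). RPL35A, a protein of the large subunit, thus had opposite signs at the 2 times, and the difference of its goggle effects was 0.45 (SE 0.25) and did not pass. RPL22L1 (0.21) and RPS28 (0.19) followed it in that comparison, and RPS13 (-0.18), RPL27 (-0.07) and RPL3L (-0.06) were lowest. RPS6, whose protein is the target of the S6 kinases, differed by -0.09 (SE 0.11) at 3 d and -0.08 (SE 0.11) at 6 h. RPL5 and RPL11, which bind the regulator MDM2 when ribosome assembly is disturbed, differed by -0.03 and 0.02 at 3 d and by -0.04 and 0.003 at 6 h.

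The second comparison sets 3 d against 6 h within each kind of eye. On the deposited scale most members were higher at 3 d: 60 of 65 in goggled eyes and 56 of 65 in open eyes, with median differences of 0.18 and 0.15 against -0.08 and -0.05 over all tested probe sets. Relative to the 18 hybridisation controls described further on, which hold no chicken RNA, the medians of the members were slightly below 0. On that scale 26 of 65 members were higher in goggled and 21 in open eyes. Most of another 24 controls without chicken RNA were lower at 3 d. On the deposited scale 9 members rose in goggled eyes and 5 in open eyes, and none fell (limma, adjusted p under 0.05). Over all tested probe sets 12.7% were called in goggled eyes (4.13% rose and 8.56% fell). In open eyes 7.34% were called (2.62% rose and 4.72% fell). The members' shares that rose, 13.8% and 7.69%, were above the background for a rise and near that for a call in either direction. Among probe sets above 4096, 10.4% of 48 members and 6.94% of 144 others rose in goggled eyes. In open eyes these shares were 6.25% and 3.47%. In goggled eyes 8 members had every array at 3 d above every array at 6 h (background 2.48%, and 3.62% in the other direction). In open eyes the times overlapped for every member (background 1.41% wholly higher and 2.01% wholly lower). Of the 43 genes of the large subunit 8 rose in goggled and 5 in open eyes, and of the 22 of the small subunit 1 and 0. The median differences in goggled and open eyes were 0.18 and 0.16 for the large and 0.18 and 0.13 for the small subunit. Whether the larger count in goggled eyes is a difference between the eyes is the comparison of goggle effects above, in which no member passed.

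The count in open eyes depended on single arrays. Without replicate 2, 5 or 6 of the open eyes at 6 h, which had the lowest levels, 1, 2 and 2 members rose, and without replicate 3, the highest, 9 rose. Without replicate 1, 3, 4 or 5 of the open eyes at 3 d, 3 rose. In goggled eyes the count stayed between 6 and 11 whichever array was left out.

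**Figure D3:**
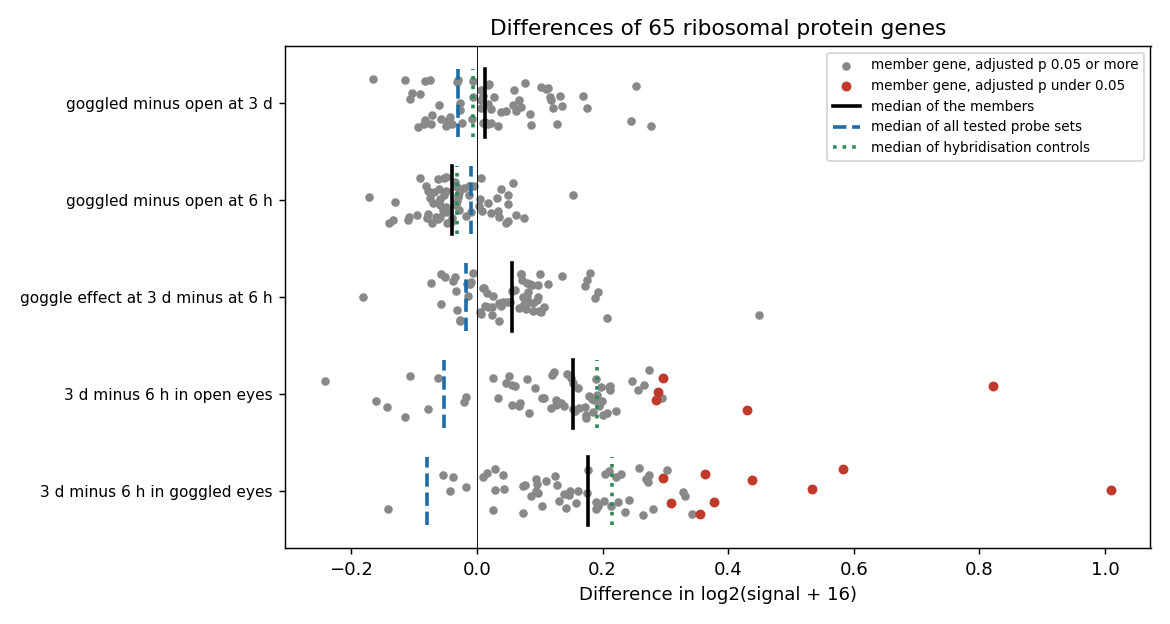
Each point is the difference in log2(signal + 16) of 1 member in 1 of 5 comparisons (rows), red where limma's adjusted p was under 0.05, with bars for the median of the members (black), of all tested probe sets (blue, dashed) and of the 18 hybridisation controls (green, dotted, not fitted for the difference of goggle effects). In the 3 goggle rows the medians of the members are 0.01 at 3 d, -0.04 at 6 h and 0.06 for the difference of goggle effects. In the 2 rows of 3 d against 6 h the members lie to the right of all probe sets but centre slightly below the hybridisation controls. Another 24 controls without chicken RNA, most of them lower at 3 d, are not drawn. RPL23 is farthest out, at 1.01 in goggled and 0.82 in open eyes.

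RPL23, a protein of the large subunit at its interface with the small subunit that can also bind MDM2, had the largest difference of the members. Its signal was 2060 to 3600 with a median of 2998 in goggled eyes at 3 d, against 1158 to 1768 with a median of 1356 in goggled eyes at 6 h. The open eyes ranged over 1747 to 3277 with a median of 2597 at 3 d, against 908 to 2721 with a median of 1446 at 6 h. The goggled groups did not overlap, and in the open groups replicate 3 at 6 h reached into the range of the 3 d eyes. The differences were 1.01 (SE 0.21, 2.01-fold, adjusted p = 0.00341) in goggled and 0.82 (SE 0.21, 1.77-fold, adjusted p = 0.0183) in open eyes. In open eyes the adjusted p was 0.0507 without replicate 2 of the open eyes at 6 h. When the arrays were centred on the hybridisation controls RPL23 stayed past the threshold in both kinds of eye (adjusted p = 0.00444 in goggled and 0.0255 in open eyes). Its call was lost in both with the array median as a covariate (adjusted p = 0.378 and 0.2) and with the mean of its probe sets (0.455 and 0.348), and in open eyes when only the arrays compared were fitted (0.0707).

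RPL36A, a protein of the large subunit at the exit site of the transfer RNA, was the steadier of the pair. It had 3981 to 5240 with a median of 4543 in goggled eyes at 3 d, against 2856 to 3462 with a median of 3144 in goggled eyes at 6 h. The open eyes had 3791 to 4688 with a median of 4163 at 3 d, against 2554 to 3858 with a median of 3139 at 6 h. Only replicate 1 of the open eyes at 6 h reached into the range of the open eyes at 3 d. The differences were 0.53 (SE 0.098, adjusted p = 0.00137) in goggled and 0.43 (SE 0.098, adjusted p = 0.00915) in open eyes, and both were called in all 24 fits that left out 1 array. Centred on the hybridisation controls they were 0.32 (adjusted p = 0.0146) and 0.24 (adjusted p = 0.0719) in goggled and open eyes. With the array median as a covariate neither was called (adjusted p = 0.111 and 0.0694), nor that in open eyes when only the arrays compared were fitted (0.0549).

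RPLP1, an acidic stalk protein, and RPL32 and RPL5 of the large subunit rose in both kinds of eye by less. RPLP1 had 5656 to 6930 with a median of 6157 in goggled eyes at 3 d, against 4524 to 5101 with a median of 4897 in goggled eyes at 6 h, and 5883 to 6453 with a median of 6273 in open eyes at 3 d, against 4544 to 6051 with a median of 5033 in open eyes at 6 h. Its differences were 0.36 (SE 0.076, adjusted p = 0.00386) and 0.29 (SE 0.076, adjusted p = 0.0229) in goggled and open eyes. With the mean of all its probe sets they turned to -0.097 and -0.15, since dimmer probe sets of RPLP1 reached -0.32 and -0.67. RPL32 had 4969 to 6122 with a median of 5664 in goggled eyes at 3 d, against 4066 to 4580 with a median of 4311 in goggled eyes at 6 h, and differed by 0.38 there (adjusted p = 0.00565) and by 0.30 in open eyes (adjusted p = 0.0333). RPL5 had 4335 to 5314 with a median of 4660 in goggled eyes at 3 d, against 3548 to 4102 with a median of 3854 in goggled eyes at 6 h, and differed by 0.30 there (adjusted p = 0.0258) and by 0.29 in open eyes (adjusted p = 0.0435). In open eyes the groups of all these genes overlapped, since replicate 3 at 6 h reached into the range of the 3 d eyes in each.

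Of the other members that rose in goggled eyes, RPL35A, RPL36, RPL22 and RPS10, none passed in open eyes. RPL35A had 1518 to 1926 with a median of 1593 in goggled eyes at 3 d, against 826 to 1495 with a median of 1109 in goggled eyes at 6 h, a difference of 0.58 (SE 0.18, adjusted p = 0.0309). In open eyes it had 1087 to 1723 with a median of 1281 at 3 d, against 930 to 2038 with a median of 1031 at 6 h, a difference of 0.13 (SE 0.18, adjusted p = 0.7). RPL36 differed by 0.44 in goggled eyes (adjusted p = 0.0113) and by 0.27 in open eyes (adjusted p = 0.141). RPL22 differed by 0.35 in goggled (adjusted p = 0.0155) and 0.26 in open eyes (adjusted p = 0.094), and RPS10, the single small-subunit gene among them, by 0.31 in goggled (adjusted p = 0.0244) and 0.27 in open eyes (adjusted p = 0.0591). For these 4 genes the 2 kinds of eye were not shown to differ, since none passed in the comparison of goggle effects.

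Several of these calls rested on single arrays. In goggled eyes, RPL5 and RPS10 lost theirs without replicate 5 of the goggled eyes at 6 h or without replicate 1 or 4 of those at 3 d, with adjusted p up to 0.0628 for RPL5 and 0.0566 for RPS10. RPL35A lost its call without the same arrays or replicate 1 of the goggled eyes at 6 h, with adjusted p up to 0.0781. In open eyes, RPLP1 lost its call without replicate 2, 5 or 6 at 6 h (adjusted p up to 0.0598), RPL32 also without replicate 1, 3, 4 or 5 at 3 d (up to 0.0884), and RPL5 in 15 of the 24 fits (up to 0.11). Centred on the hybridisation controls, the members called besides RPL23 and RPL36A stayed above 0 without a call, with adjusted p from 0.0699 (RPL35A) to 0.495 (RPL5) in goggled and from 0.384 (RPL32) to 0.467 (RPL5) in open eyes. On that scale RPS15A (-0.35 and -0.43), RPS12 (-0.27 and -0.33) and RPL24 (-0.25 in both) were called lower in goggled and open eyes, and RPLP2 (-0.27) in open eyes.

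**Figure D4:**
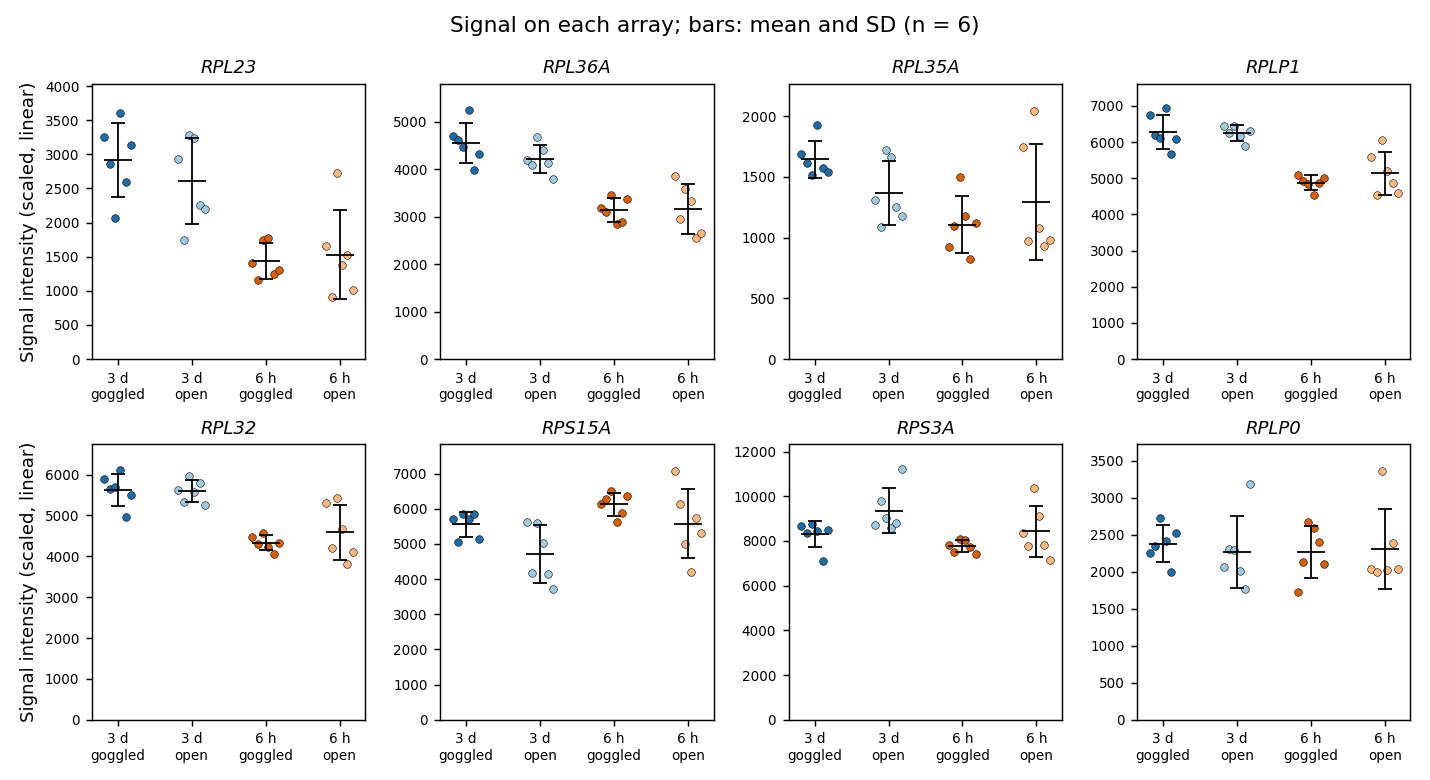
Signal (linear scale, axis from 0) of 8 members on each array, with the mean and SD of 6 arrays per group, in the order goggled 3 d, open 3 d, goggled 6 h and open 6 h. RPL23, RPL36A, RPLP1 and RPL32 are higher at 3 d in both kinds of eye on this scale, and RPL35A passed the test in goggled eyes. For RPS15A, RPS3A and RPLP0, goggled and open eyes overlap at each time, and the times overlap in each kind of eye.

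The remaining stalk proteins did not follow RPLP1. RPLP0 had 1995 to 2722 with a median of 2385 in goggled eyes at 3 d, against 1724 to 2673 with a median of 2264 in goggled eyes at 6 h, and differed by 0.08 (SE 0.14) there and by -0.02 (SE 0.14) in open eyes. RPLP2 differed by -0.02 (SE 0.070) in goggled and -0.08 (SE 0.070) in open eyes. Neither passed the test.

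Members below 0 were few, and none passed. RPS15A was lowest in both, at -0.14 (SE 0.11) in goggled and -0.24 (SE 0.11, adjusted p = 0.198) in open eyes. RPS27L was at 0.02 in goggled eyes and -0.16 in open eyes, RPS12 at -0.05 in goggled and -0.14 in open eyes, and RPS13 at -0.04 in goggled eyes and 0.14 in open eyes. The copies of other members stayed near 0. RPL22L1 was at 0.09 in goggled and -0.11 in open eyes, while its parent RPL22 rose in goggled eyes. RPL7L1 was at 0.03 and -0.11, and RPL3L at 0.03 and 0.08. RPL26 is not among the members, and RPL26L1, whose RefSeq synonym is RPL26, was at 0.13 and 0.05. RPL39L, whose synonym is RPL39, was at 0.16 and 0.11. RPL7 was at 0.21 and 0.20. RPL3 and RPL4 of the large subunit were at 0.10 and 0.13 in goggled and 0.12 and 0.16 in open eyes. Of the small subunit, RPS3 was at 0.26 and 0.21, RPS14 at 0.15 and 0.17, RPS27A, made as a fusion with ubiquitin, at 0.23 and 0.15, and RPS6 at 0.11 and 0.13, in goggled and open eyes, and none of them passed.

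Controls with no chicken RNA differed between the times as well, of 1 kind upward by as much as the members and of another kind downward. The 18 hybridisation controls are probe sets for the bacterial RNAs bioB, bioC and bioD and the phage RNA cre. These are by convention added to each sample before hybridisation. All 18 were higher at 3 d than at 6 h, with a median difference of 0.22 (0.06 to 0.29) in goggled eyes and 0.19 (0.12 to 0.26) in open eyes, while goggled minus open eyes gave -0.01 at 3 d and -0.03 at 6 h. The 24 probe sets for the Bacillus subtilis genes dap, lys, phe and thr, many of them dim, mostly went the other way: 22 were lower at 3 d in goggled eyes, with a median difference of -0.21, and 19 in open eyes, with a median of -0.19. Each RNA of either kind is measured by several probe sets, so these counts are not of independent controls. The labels do not say when either kind was added here. In the open eyes at 6 h, replicate 6, with the lowest level of the members, also had the dimmest hybridisation controls of all arrays (mean log2 of 9.58). There replicates 1 and 3, with the highest levels, had the brightest of their group (10.1 and 9.93). In goggled eyes at 6 h, replicate 5 had the lowest level (-0.22) and the dimmest controls of its group (9.69). Replicates 3 and 4 of that group, with the highest levels, had the brightest (9.87 and 9.91). The 3 d arrays did not share this order. In open eyes at 3 d, replicate 2 had the lowest level (-0.05) and the brightest controls of its group (10.13). In goggled eyes at 3 d, replicate 4 had the highest level of all arrays (0.24). Its controls were at 9.97, in a group that ran from 9.93 to 10.14. Bright probe sets of other genes moved the same way by less: the 144 tested probe sets above 4096 that are no members had a median difference of 0.08 in goggled and 0.10 in open eyes, and 10 of them rose and 3 fell in goggled eyes, against 5 and 1 in open eyes. The 48 members above 4096 had medians of 0.18 in goggled and 0.16 in open eyes. The ratio of 3' to 5' signal of the elongation factor EF1A control, which grows as RNA is degraded, averaged 1.520 in goggled and 1.509 in open eyes at 3 d, against 1.403 in goggled and 1.420 in open eyes at 6 h. That of the actin control was larger. It averaged 3.85 in goggled and 3.69 in open eyes at 3 d, against 3.66 in goggled and 3.46 in open eyes at 6 h. Over all arrays the actin ratio ran from 2.40 to 5.05. The part of these array measures in the members' difference by time was not tested beyond the alternatives given in the last section.

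**Figure D5:**
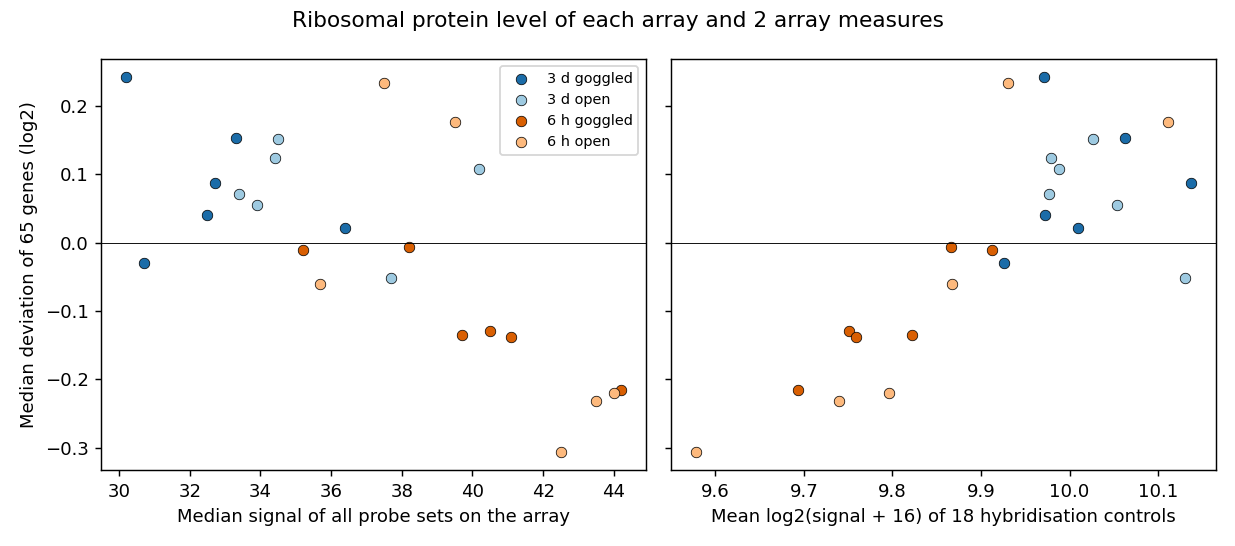
The vertical axis is the level of the 65 genes on each array (median deviation, log2), set against the median signal of all probe sets of that array (left) and the mean log2(signal + 16) of its 18 hybridisation controls (right), with colours for the 4 groups. Arrays at 3 d lie mostly to the left in the first panel and to the right in the second. The open eye at 6 h with the lowest level (-0.31) also has the dimmest controls (9.58). In contrast, the open eye at 3 d with the lowest level of its group (-0.05) has the brightest controls of that group (10.13).

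The other probe sets of the same genes, many of them dim, often did not share the direction of the brightest one. Median differences of the 62 other tested probe sets at 3 d against 6 h were -0.08 in goggled and -0.04 in open eyes. Over all tested probe sets they were -0.08 and -0.05. Of the 62, 8 rose and 4 fell in goggled eyes, and 1 rose and 2 fell in open eyes. These are 12.9% and 6.45% in goggled eyes, against 4.13% and 8.56% over all probe sets, and 1.61% and 3.23% in open eyes, against 2.62% and 4.72%. Among the 31 genes with several tested probe sets, 20 had probe sets of both signs in goggled eyes and 18 in open eyes. Of the genes with 2 tested probe sets that were both bright, RPL4, RPL11, RPL19, RPS2 and RPS7 had both above 0 in each kind of eye. RPL36 and RPS15A had opposite signs. The 8 that rose in goggled eyes belong to genes whose brightest probe set did not pass: RPS25 with 2 (0.44 and 0.43, adjusted p = 0.0306 and 0.0251), RPS14 with 2 (0.79 and 0.55, adjusted p = 0.0473 and 0.0114), and RPL10A (0.43), RPL19 (0.37), RPS7 (0.38) and RPL21 (0.52) with 1 each. That of RPL21 is also the one that rose in open eyes (0.46, adjusted p = 0.0346), and another probe set of RPL21 fell in goggled eyes (-0.42, adjusted p = 0.0465). The second probe set of RPS15A differed by 0.24 in goggled and 0.23 in open eyes, opposite in sign to the first, and neither passed. The second probe set of RPL36, with a mean signal of 3422, differed by -0.12 and -0.19, opposite to the one that rose. That of RPL23, with a mean signal of 20.05, differed by -0.66 and -0.35 and did not pass. The others that fell were dim probe sets of RPL38 (mean 100.6, -0.997 in goggled eyes, adjusted p = 0.00145), of RPL24 (mean 32.4, -0.63 in both kinds of eye, adjusted p = 0.00138 in goggled and 0.00239 in open eyes), of RPL7L1 (-0.67 in goggled eyes) and of RPS13 (-0.94 in open eyes). Of the 65 chosen probe sets, 16 have a suffix that marks probes shared between transcripts and 2 one that marks probes which may bind unrelated sequence, so near-identical copies of a gene may add to these signals.

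Of the probe sets that the rule leaves out but whose genes are ribosomal components, 3 were set beside the members, and none passed in any comparison. RPS4Y1, whose RefSeq synonyms include RPS4X, averaged 7057 ± 500 in goggled eyes at 3 d, 7357 ± 489 in open eyes at 3 d, 6084 ± 440 in goggled eyes at 6 h and 6813 ± 1434 in open eyes at 6 h. RPSAP58, with the synonym RPSA, differed between 3 d and 6 h by 0.29 in goggled (adjusted p = 0.0542) and 0.14 in open eyes. RACK1, a signalling scaffold of the small subunit, differed by 0.25 (adjusted p = 0.137) and 0.12.

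Genes that act with the ribosome were called between 3 d and 6 h at shares of 0% to 15.2% in goggled eyes (12.7% over all probe sets) and 3.12% to 7.69% in open eyes (7.34% over all), and none was called in a goggle comparison. Of 13 tested ribosome-associated and TOP-class genes, 0 rose in goggled eyes at 3 d against 6 h and 1 in open eyes, EEF2, the translocation factor (0.32, adjusted p = 0.0423), and none fell. Of 35 translation factors, 2 rose and 1 fell in goggled eyes and 1 rose and 1 fell in open eyes. EIF3A, a subunit of the initiation factor that binds the small ribosomal subunit, rose by 0.56 and 0.53, and EIF4E, which binds the cap of messenger RNA and through which TOP messages are regulated, fell by 0.36 and by 0.44, in goggled and open eyes (adjusted p = 0.00163 and 0.00379 for EIF3A, 0.00708 and 0.00308 for EIF4E).

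Of 115 ribosome biogenesis genes, 11 rose and 3 fell in goggled eyes and 4 rose and 2 fell in open eyes. NOLC1 (0.36 in goggled and 0.48 in open eyes), a nucleolar protein, and DDX27 and NOP14, both needed to process ribosomal RNA, rose in both kinds of eye, DDX27 by 0.39 in each and NOP14 by 0.38 in goggled and 0.28 in open eyes. UTP11 (0.48), DDX51 (0.42) and HEATR1 (0.42) rose and UTP14A (-0.51), NOC4L (-0.28) and NCL, nucleolin (-0.26), fell in goggled eyes, and NOC4L (-0.30) and NOB1 (-0.32) fell in open eyes. Of 33 genes of mTOR and S6 kinase signalling, 4 rose and 1 fell in goggled eyes and 1 rose and 1 fell in open eyes. LAMTOR5, part of the complex that holds mTOR at the lysosome, rose by 0.43 and 0.31, and MYCN, a transcription factor that drives ribosome production, fell by 0.45 and by 0.61. MTOR itself rose by 0.35 in goggled eyes (adjusted p = 0.0151). Of 64 mitochondrial ribosomal proteins, 6 rose and 2 fell in goggled eyes and 1 rose and 1 fell in open eyes. MRPL20 rose by 0.43 and 0.45 and MRPS6 fell by 0.56 in both. The median differences of these lists between 3 d and 6 h were 0.03, 0.09, 0.09, -0.03 and 0.14 in goggled eyes and 0.09, 0.10, 0.05, -0.04 and 0.03 in open eyes, in the order in which they are named, against 0.18 and 0.15 for the cytosolic ribosomal proteins.

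Markers of photoreceptors and pigment epithelium had median differences between 3 d and 6 h close to the members' or larger, 0.18 and 0.25 in goggled and 0.20 and 0.23 in open eyes. Other lists were lower in goggled and open eyes: Müller glia 0.11 and -0.01, cell cycle 0.08 and -0.003, neuron -0.09 and 0.03. Choroid, sclera and vessel markers had -0.15 and -0.07, and red blood cell markers -0.26 and -0.24. Immune cell markers had -0.10 and -0.11, and striated muscle markers -0.66 and -0.06. Of 14 rod and cone markers, CNGB1 and PDE6C were called higher at 3 d in both kinds of eye, and their summed signal was 26408 to 36836 in goggled eyes at 3 d, 28083 to 41654 in open eyes at 3 d, 24076 to 33386 in goggled eyes at 6 h and 23939 to 30431 in open eyes at 6 h. Of 14 pigment epithelium markers none passed, and their summed signal was 7170 to 17813, 6906 to 18189, 7162 to 12404 and 7062 to 14140 in the same groups. Of 9 tested Müller glia markers SLC1A3 rose in goggled eyes and AQP4 fell in both. Of 14 cell cycle markers BUB1 fell in goggled eyes, and of 15 neuron, 6 striated muscle, 7 red blood cell and 8 immune cell markers none passed. Choroid, sclera and vessel markers, 16 tested and none called, summed to 6794 in replicate 3 of the goggled eyes at 3 d, against a median of 1135 in its group. Their part in the members' differences was not tested, and without that chick 9 members rose in goggled and 2 in open eyes.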

How the data were processed

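According to the labels, each eye gave 3 µg of total RNA for a biotin-labelled target on its own array, scanned under GCOS 1.4. The submitters' processing notes list GCOS and RMA. It is not known from the labels which program wrote the table. The deposited values are 1 signal intensity per probe set and array, linear, with a 2% trimmed mean of 150.03 on each array. The number of arrays, 6 per group, limits the precision.

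The 96 control probe sets were removed, 16 was added and log2 taken of the deposited intensity, and probe sets with a mean signal below the 30th percentile (14.4) were left out, which left 26913. Group means of all 24 arrays were fitted with limma 3.58.1 in R 4.3.3 (lmFit, eBayes, 20 residual degrees of freedom), with Benjamini-Hochberg adjustment over all tested probe sets at a threshold of 0.05. The same code was tested on simulated data with independent noise for each probe set, which does not cover shifts shared by a whole array. Symbols are those of the platform, and all 65 were found in RefSeq's gene table (assembly GRCg7b), from which only names were taken. Protein and promoter sequences were not analysed here. Plots were made in matplotlib 3.10.9 under Python 3.11.15.

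The labels give the open eyes the letter C and the goggled eyes the letter E, read as control and experimental. A chick's eyes were taken to be the arrays that share a number within a time. Their deviations from the group means correlated at 0.101 to 0.444 at 3 d and 0.222 to 0.424 at 6 h, every pair above 0.1, and 5 of 6 and 6 of 6 correlated best with their own number.

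Members and gene lists were chosen with earlier results of these data known. Named are, per comparison, up to 8 called members in each direction and the 3 highest and 3 lowest. Also named are the stalk proteins, RPS6, RPL3, RPL4, RPL5, RPL11, RPS3, RPS14 and RPS27A, and members with the symbol of a copy. Up to 3 called genes of a list in each direction and comparison are named too. Others are named after their values were seen. Alternatives were the chick as a block, other filters (none, the 50th percentile), offsets (1, 64) and normalizations (quantile, median centring, cyclic loess), trended robust variances, only the arrays compared, the mean of a gene's probe sets, leaving out each array, and leaving out the 3 d chick 3. The array median and the actin 3'/5' ratio as covariates and centring on the hybridisation controls were added after seeing the data.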

Additional observations from a re-analysis of the deposited data

Results flagged for a closer look

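Among 136 groups of 6 arrays of the named members and 4 of the members' level per array, the highest or lowest array of 9 stood apart from the other 5 by more than Dixon's 95% limit, and chance alone gives about 1 group in 20. In open eyes at 6 h, replicate 3 was high for RPL4 (6949.5, against 4603.1 to 5138.1 in the others), RPLP0 (3363.9, against 1993.1 to 2385.6) and RPS14 (9241.3, against 5451.1 to 6782.5), and this array also had the highest level of the members in its group. Replicate 4 of the same group was low for the dim RPS13 (33.1, against 44.0 to 49.8). In goggled eyes at 3 d, replicate 5 was low for RPL19 (7862.8, against 9023.7 to 9581.1) and RPS3A (7126.1, against 8350.2 to 8763.0). In goggled eyes at 6 h, replicate 1 was low for RPS28 (1754.4, against 2037.9 to 2197.5). In open eyes at 3 d, replicate 4 was low for RPS27A (4509.7, against 5493.1 to 5756.9) and replicate 2 high for the dim RPL3L (51.3, against 18 to 28.6).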

How the results depend on the processing

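In the 4 goggle comparisons no member was called under any of the alternatives run or with any array left out, and with the chick as a fixed or random replicate block the count was 0 in each. The random replicate block left 9 and 5 members called in goggled and open eyes at 3 d against 6 h and changed no other call. A fixed block cannot be fitted for these, since the times are different chicks, and fitting only the arrays compared gives nothing further for the 2 comparisons that use all arrays. Of the counts by time, that in goggled eyes (9) was 16 after median centring and 0 with the array median as a covariate (5 unadjusted), where the median difference was 0.0079. The count in open eyes (5) was 2 after quantile normalization, 2 without chick 3 of 3 d, and 0 when only the arrays compared were fitted (8 at an unadjusted p under 0.05) or with the array median as a covariate (6 unadjusted). The array median itself differs between the times. Centring on the hybridisation controls moved the median of all tested probe sets to -0.29 in goggled and -0.24 in open eyes and that of the members to -0.0349 and -0.0363. This centring subtracts 1 value per array, so it cannot change the 0.26 and 0.20 by which the members lay above all probe sets. The calls became 2 higher and 3 lower (5 in all) in goggled and 1 higher and 4 lower in open eyes. RPS15A, RPS12 and RPL24 were lower in both. No centring was done on the 24 Bacillus subtilis controls, whose medians went the other way, at -0.21 in goggled and -0.19 in open eyes. Under quantile normalization the members lay above all probe sets by only 0.083 in goggled and 0.051 in open eyes. There 50 members were higher at 3 d in goggled and 43 in open eyes, against 60 and 56 on the deposited scale. Under cyclic loess the members lay above by 0.10 and 0.087, and with the array median as a covariate by 0.0024 and 0.024. Leaving out each array gave 6 to 11 calls in goggled and 1 to 9 in open eyes, and medians of 0.145 to 0.207 and 0.0955 to 0.214. In the goggle comparisons it gave medians of -0.0188 to 0.0335 at 3 d, -0.0901 to 0.0266 at 6 h, -0.0396 to 0.0169 over both and -0.0138 to 0.107 for their difference. With the mean of all probe sets of a gene RPLP1 turned to -0.0971 in goggled and -0.148 in open eyes. No called member changed sign under another setting. The causes were not tested. The probe sets of RPL3L and RPS13, with mean signals of 26.4 and 46.9, lie near the filter of 14.4, and the table holds no background values or detection calls, so how far they stood above background is unknown.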
